A study of Rattus norvegicus with 20 samples.

Results

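The prostanoid receptors are the cell-surface receptors for the prostaglandins and thromboxane, and 7 of them were followed here in 2 organs of hypertensive rats, the cortex of the kidney and the left ventricle. They were taken by gene symbol from a table of 30560 genes: Ptger1, Ptger2, Ptger3 and Ptger4 (the EP receptors for prostaglandin E2), Ptgfr (FP, for prostaglandin F2α), Ptgir (IP, for prostacyclin) and Tbxa2r (TP, for thromboxane A2). All 7 passed the filter on low values in each organ. The Maresin 1 (MaR1) group held 5 male rats that received this docosahexaenoic acid-derived lipid mediator from a subcutaneous osmotic pump at up to 1.3 µg/kg/day for 3 weeks, and the vehicle group held 5 male rats with a pump of vehicle alone. Rats of both groups ate a diet with 4% NaCl for those weeks, carried a pressure telemeter from 8 weeks of age and were labelled WT; the strain is not named in the labels. Each rat gave a poly-A RNA library of either organ, so 20 libraries form 4 groups of 5. Animals RB035 to RB039 received MaR1 and animals RB030 to RB034 received vehicle.

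Prostanoids are made from arachidonic acid by cyclooxygenases and act near the cell that makes them. Their receptors are G protein-coupled: EP2, EP4 and IP raise cyclic AMP through Gs, EP1, FP and TP raise cell calcium through Gq, and EP3 mainly lowers cyclic AMP through Gi. In the kidney, EP3 is known on the thick ascending limb and collecting duct, where prostaglandin E2 opposes salt and water uptake. In the heart of the rat, FP is known on cardiomyocytes, where prostaglandin F2α is known to enlarge the cells.

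Depth ranged from 19383232 to 30342034 fragments assigned to genes per library. The authors' values are FPKM, fragments scaled by exon length and by a library size. The least expressed member, Ptger2, was counted with 0 to 35 fragments per library, Ptgir with 34 to 136 and Tbxa2r with 35 to 104, while Ptger3 reached 2764 and Ptgfr 5149 fragments in a library. The labels matched the contents as far as the organ, heart or kidney. Sums over 6 cardiomyocyte markers were 11311 to 19673 FPKM in the left ventricle and 0.418 to 1.43 FPKM in the kidney cortex. For 6 proximal tubule genes they were 1508 to 3014 FPKM in the kidney cortex and 0.709 to 8.87 FPKM in the left ventricle. These sums do not tell cortex from other parts of the kidney, or ventricle from atrium. Some libraries stood apart. Urothelial markers (6 genes) summed to 15.6, 31.8 and 86.7 FPKM in the MaR1 kidneys RB036, RB038 and RB039 and to 4.05 FPKM in the vehicle kidney RB034; the other 6 kidneys had 0.243 to 0.549 FPKM. Atrial markers (5 genes) summed to 5445 FPKM in the MaR1 heart RB035 and to 5342 and 10082 FPKM in the vehicle hearts RB034 and RB033, against 367 to 3291 FPKM in the others.

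Ptger3 and Ptgfr are the 2 members whose levels never overlapped between the organs, so the 250 bases before each start are shown. They lie on the same chromosome, at chr2:249264832-249265081 on the plus strand for Ptger3 and chr2:243425624-243425873 on the minus strand for Ptgfr (RefSeq annotation, build GRCr8; all 7 members matched). Both are written 5′ to 3′ along the gene, and capitals mark a GC box (GGGCGG, either strand).
Ptger3: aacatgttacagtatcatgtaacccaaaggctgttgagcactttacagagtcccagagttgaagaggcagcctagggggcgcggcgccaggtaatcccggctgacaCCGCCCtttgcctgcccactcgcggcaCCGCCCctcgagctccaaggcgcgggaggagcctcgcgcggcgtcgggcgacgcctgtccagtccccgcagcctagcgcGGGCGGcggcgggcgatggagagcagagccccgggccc
Ptgfr: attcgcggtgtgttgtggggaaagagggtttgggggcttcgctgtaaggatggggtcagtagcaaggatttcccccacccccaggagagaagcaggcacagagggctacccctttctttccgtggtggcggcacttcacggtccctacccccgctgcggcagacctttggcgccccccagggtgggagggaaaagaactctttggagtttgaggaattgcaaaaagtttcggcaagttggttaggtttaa
The Ptger3 window held 3 GC boxes, at 33 to 38, 112 to 117 and 139 to 144 bases before the start, and was 68.4% G or C. The Ptgfr window was 56.8% G or C and held none of the motifs searched. The median of the 33469 rat promoters of the same length was 51.2% G or C. Searches on both strands covered the GC box, found in 30.5% of those promoters, and the TATA box (TATAAA), found in 12.9%. They also covered the CCAAT box, found in 34.0%, and the cyclic AMP response element (TGACGTCA), found in 1.59%. The 3 GC boxes of Ptger3 do not overlap one another. Among the other members, Ptger1 held 1 GC box and 1 CCAAT box and Ptgir held 1 GC box, while Ptger2, Ptger4 and Tbxa2r held none of the 4 motifs.

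In the kidney cortex the family was dominated by Ptger3, and in the left ventricle by Ptgfr. Ptger3 made up 66.9 ± 5.61% of the summed FPKM of the 7 receptors in the kidney cortex and 1.86 ± 0.625% in the left ventricle (SD, n = 10 animals). Ptgfr made up 5.02 ± 0.883% of the sum in the kidney cortex and 73.7 ± 6.87% in the left ventricle. The sum itself was 42.3 ± 7.60 FPKM in the kidney cortex and 67.4 ± 11.9 FPKM in the left ventricle.

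**Figure D1:**
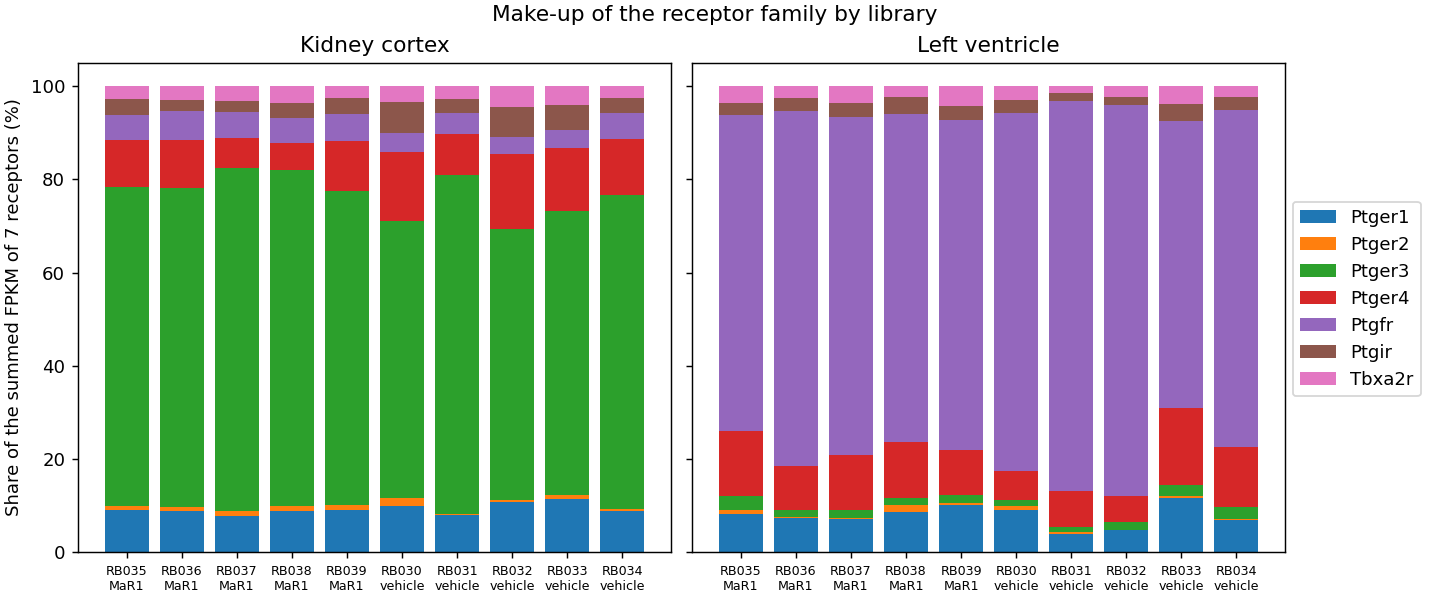
Share of the summed FPKM of the 7 receptors held by each receptor (vertical axis, %), one bar per library, MaR1 animals left of vehicle animals in each panel. Ptger3 holds 58.2 to 73.6% of every kidney cortex bar and Ptgfr 61.6 to 83.9% of every left ventricle bar.

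The order of the levels in the kidney cortex was Ptger3 at 28.5 ± 6.89 FPKM, Ptger4 at 4.47 ± 1.11, Ptger1 at 3.86 ± 0.551, Ptgfr at 2.14 ± 0.622, Ptgir at 1.62 ± 0.596, Tbxa2r at 1.35 ± 0.329 and Ptger2 at 0.371 ± 0.212 FPKM (mean ± SD, n = 10). Neighbours in the order were compared library by library on the scale of log2(FPKM + 0.1), with an exact two-sided sign-flip permutation test and adjustment over the 12 neighbour pairs of both organs. The pairs and their direction were taken from these same libraries, which the test does not allow for. Ptger3 stood above Ptger4, Ptger1 above Ptgfr, and Tbxa2r above Ptger2 in all 10 kidneys (exact p = 0.00195 each, the smallest possible; adjusted p = 0.00391). Ptger4 and Ptger1 (adjusted exact p = 0.181), Ptgfr and Ptgir (0.141), and Ptgir and Tbxa2r (0.138) did not differ beyond their spread. Without animal RB038, Ptger4 passed the threshold over Ptger1, with a mean log2 difference of 0.26. This order pools the treatment groups, and the means of these close neighbours were not in the same order in both. Ptgfr was above Ptgir in MaR1 kidneys (2.59 and 1.32 FPKM) and below it in vehicle kidneys (1.69 and 1.93 FPKM). Ptger4 was just below Ptger1 in MaR1 kidneys (3.89 and 3.96 FPKM) and above it in vehicle kidneys (5.06 and 3.76 FPKM). Ptgir was just below Tbxa2r in MaR1 kidneys (1.32 and 1.37 FPKM) and above it in vehicle kidneys (1.93 and 1.32 FPKM).

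In the left ventricle the order was Ptgfr at 50.3 ± 13.1 FPKM, Ptger4 at 6.87 ± 1.67, Ptger1 at 4.99 ± 0.907, Tbxa2r at 1.88 ± 0.422, Ptgir at 1.79 ± 0.320, Ptger3 at 1.22 ± 0.343 and Ptger2 at 0.332 ± 0.261 FPKM (mean ± SD, n = 10). The neighbours differed at each step (adjusted exact p = 0.00391 to 0.0352) except Tbxa2r and Ptgir (adjusted exact p = 0.611). The step from Ptger4 to Ptger1 was the least firm: the mean log2 difference was 0.43, it passed the threshold in only 2 of the 10 fits that left out an animal, and the level of Ptger1 is itself uncertain. In the file's annotation, which names no build, the Ptger1 gene (ENSRNOG00000004094) spans chr19:24467532-24473559 on the minus strand. All 6028 bases of it lie within the minus-strand gene Gipc1. Gipc1 averaged 16.2 FPKM in the kidney cortex and 9.89 FPKM in the left ventricle, so its reads and those of Ptger1 cannot be told apart with certainty.

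Receptors that use the same G protein held different places in the order. Of the Gs-coupled receptors, Ptger4 had the highest mean in both organs and Ptger2 the lowest. In the heart of animal RB032, Ptger2 had 0 fragments, which allows a level of up to 0.111 FPKM (3 fragments; counting error only). Of the Gq-coupled receptors, Ptgfr led the left ventricle, and Ptger1 had the highest mean in the kidney cortex. Of the receptors for prostaglandin D2, Ptgdr2 was near the floor in every library (at most 0.244 FPKM, from 0 to 9 fragments). No gene carried the symbol Ptgdr, so its level is not known here.

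**Figure D2:**
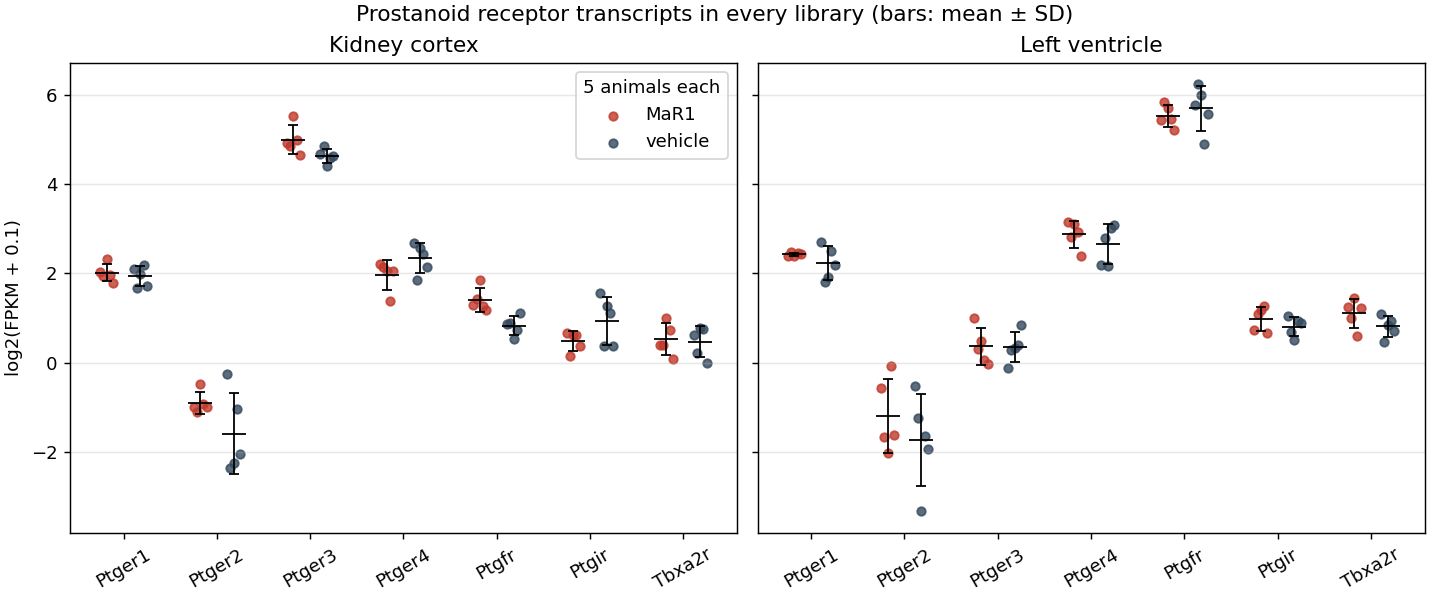
Level of each receptor as log2(FPKM + 0.1) (vertical axis) in every library, with MaR1 (red) left of vehicle (dark) for each gene. Each point is 1 animal and bars are the mean ± SD of 5; Ptger3 is the highest member in the kidney cortex and Ptgfr in the left ventricle.

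The organs were then compared within a limma model of all 20 libraries on log2(FPKM + 0.1), with the kidney cortex over the left ventricle and p adjusted over all 17365 genes tested. Ptger3 and Ptgfr differed by about the same factor in opposite directions. Bulk tissue cannot tell fewer cells of a type from less RNA per cell, here and in every comparison that follows.

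Ptger3, the Gi-coupled EP3 receptor (ENSRNOG00000010325, chr2:246606183-246684434, plus strand, 2124 bases of exon), had 21.0 to 45.8 FPKM in the kidney cortex with a median of 27.0, against 0.826 to 1.90 FPKM with a median of 1.14 in the left ventricle. Its mean was 23.4 times higher in the kidney cortex, and the lowest kidney lay far above the highest heart. The log2 fold change was 4.45 ± 0.14 (SE; adjusted p = 6.3e-17, limma), with a difference of 3.78 to 5.04 within single animals and the kidney higher in 10 of 10. A short unnamed gene on the other strand overlaps 615 bases of the locus and averaged 0.0797 FPKM in the kidney cortex and 0 in the left ventricle.

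Ptgfr, the Gq-coupled FP receptor (ENSRNOG00000046468, chr2:240733375-240765650, minus strand, 3001 bases of exon), had 1.35 to 3.52 FPKM in the kidney cortex with a median of 2.12, against 29.8 to 74.7 FPKM with a median of 49.8 in the left ventricle. Its mean in the left ventricle was 23.5 times the kidney cortex mean. The log2 fold change of kidney over heart was -4.49 ± 0.14 (adjusted p = 7.1e-17, limma), between -5.46 and -3.85 within single animals, with the heart higher in 10 of 10. The lowest heart value, in vehicle animal RB033, came from the library with the highest atrial marker sum; the part of atrial tissue in that value was not tested.

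In all, 5 of the 7 receptors passed the threshold between the organs, 1 higher and 4 lower in the kidney cortex, where 79.1% of all genes tested passed it. Organ levels that did not overlap, as for Ptger3 and Ptgfr (2 of 7), were found in 49.5% of genes. A log2 fold change of at least 4, as for Ptger3, was seen in 4.26% of genes, and one of at most -4, as for Ptgfr, in 2.27%. The median log2 fold change of the 7 receptors was -0.35, beside 0.03 over all genes tested.

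**Figure D3:**
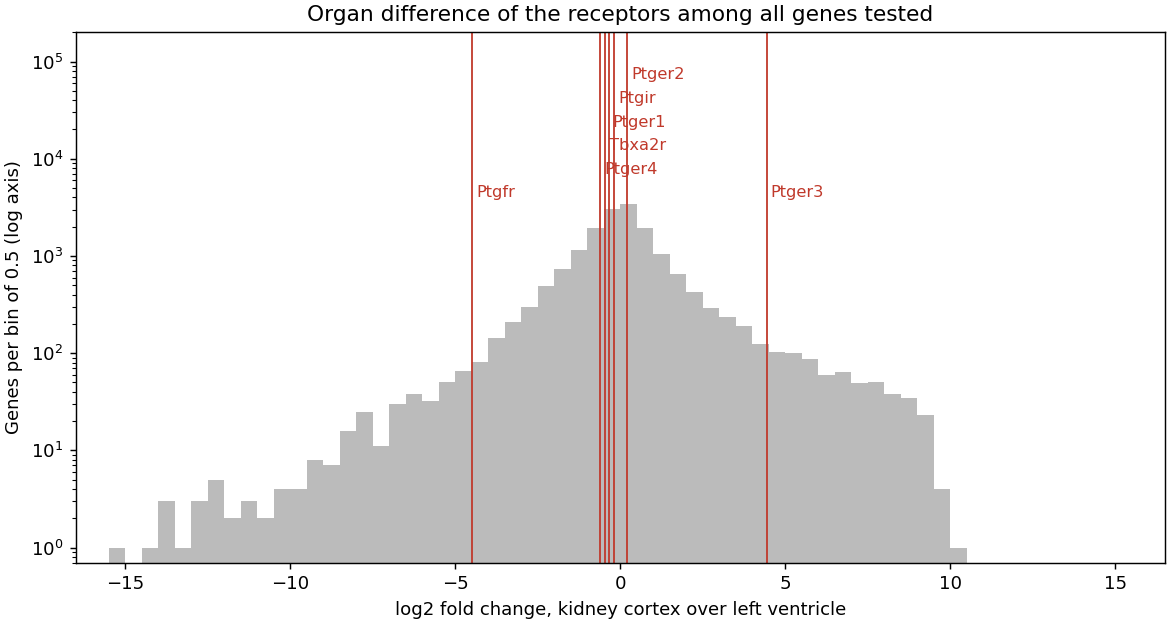
Log2 fold change of the kidney cortex over the left ventricle (horizontal axis) for all genes tested, counted in bins of 0.5 (vertical log axis), with a red line for each receptor. Ptger3 at 4.45 and Ptgfr at -4.49 lie in opposite tails, and the other 5 receptors lie between -0.61 and 0.22.

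The other 3 receptors past the threshold were modestly lower in the kidney cortex. Ptger4 (EP4, chr2:54335424-54346670) averaged 4.47 FPKM in the kidney cortex and 6.87 FPKM in the left ventricle, a log2 fold change of -0.61 ± 0.15 (SE; adjusted p = 0.00111), with the heart higher in 8 of 10 animals. Tbxa2r (TP, chr7:8383378-8388176) averaged 1.35 and 1.88 FPKM in kidney cortex and left ventricle, a log2 fold change of -0.46 ± 0.14 (adjusted p = 0.00517), with the heart higher in 9 of 10. Ptger1 had a log2 fold change of -0.35 ± 0.10 (adjusted p = 0.00461), with the heart higher in 9 of 10. All 3 calls were lost in the vehicle animals alone (log2 -0.31, -0.34 and -0.29 for Ptger4, Tbxa2r and Ptger1) and without the libraries that held urothelial or atrial transcripts (-0.34, -0.29 and -0.21). They also depended on scaling: with the assigned fragments as library size (limma voom), Ptger1 was at 0.0011, Ptger4 at -0.26 and Tbxa2r at -0.14, and the median of all genes stood at 0.38. That scaling gave 9154 genes higher and 4756 lower in the kidney cortex, against 7088 higher and 6651 lower as reported. Relative to that median, all 3 were lower in the kidney cortex under either scaling.

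Ptgir (IP, chr1:77579596-77581979) and Ptger2 (EP2, chr15:18217285-18228714) did not pass the threshold between the organs. Ptgir had 1.00 to 2.86 FPKM in the kidney cortex and 1.32 to 2.30 FPKM in the left ventricle, a log2 fold change of -0.18 ± 0.15 (95% interval -0.49 to 0.12, adjusted p = 0.258). Within the MaR1 animals alone Ptgir passed the threshold with a log2 fold change of -0.50 (adjusted p = 0.0139), and within the vehicle animals the estimate was 0.13. Ptger2 had 0.0947 to 0.740 FPKM in the kidney cortex and 0 to 0.852 FPKM in the left ventricle, with an interval of -0.50 to 0.94, so a sizeable difference either way was not detectable at this depth.

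MaR1 was next compared with vehicle in the kidney cortex. No receptor passed the threshold, and 0% of the 16905 genes tested did (limma; 1098 genes, 6.5%, had an unadjusted p under 0.05, and limma voom on recovered fragments also called 0). Of the receptors, 2 of 7 (Ptger3 and Ptgfr) were among those with an unadjusted p under 0.05. Ptger3, Ptgfr, Ptger2, Ptger1 and Tbxa2r had higher estimates and Ptger4 and Ptgir lower ones.

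Ptgfr in the kidney cortex had 2.37, 2.60, 3.52, 2.30 and 2.17 FPKM in MaR1 animals RB035 to RB039, against 1.73, 1.76, 1.35, 1.56 and 2.06 FPKM in vehicle animals RB030 to RB034. Every MaR1 kidney was above every vehicle kidney, though the lowest MaR1 and highest vehicle values were close. The means were 2.59 ± 0.543 FPKM with MaR1 and 1.69 ± 0.263 FPKM with vehicle (SD, n = 5 each). The log2 fold change was 0.58 ± 0.15 (SE; 95% interval 0.25 to 0.91, adjusted p = 0.607 over all genes), and the exact two-sided permutation p of the FPKM was 0.00794, the smallest that 5 against 5 allows. This was 1 of 14 such permutation tests over receptors and organs. It was the only receptor whose groups did not overlap, beside 1.19% of genes tested in this organ.

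Ptger3 in the kidney cortex had 30.3, 28.7, 45.8, 31.5 and 25.0 FPKM in MaR1 animals RB035 to RB039, against 25.3, 28.7, 21.0, 23.9 and 24.7 FPKM in vehicle animals RB030 to RB034. The groups overlapped, and all 5 MaR1 kidneys were above the vehicle mean of 24.7 FPKM. The log2 fold change was 0.36 ± 0.15 (95% interval 0.04 to 0.68, adjusted p = 0.733), with an exact permutation p of 0.0317. Animal RB037 was the highest of all 10 kidneys for Ptger3, Ptgfr, Ptger1 and Tbxa2r. Without it the log2 fold change was 0.23 for Ptger3 and 0.47 for Ptgfr.

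**Figure D4:**
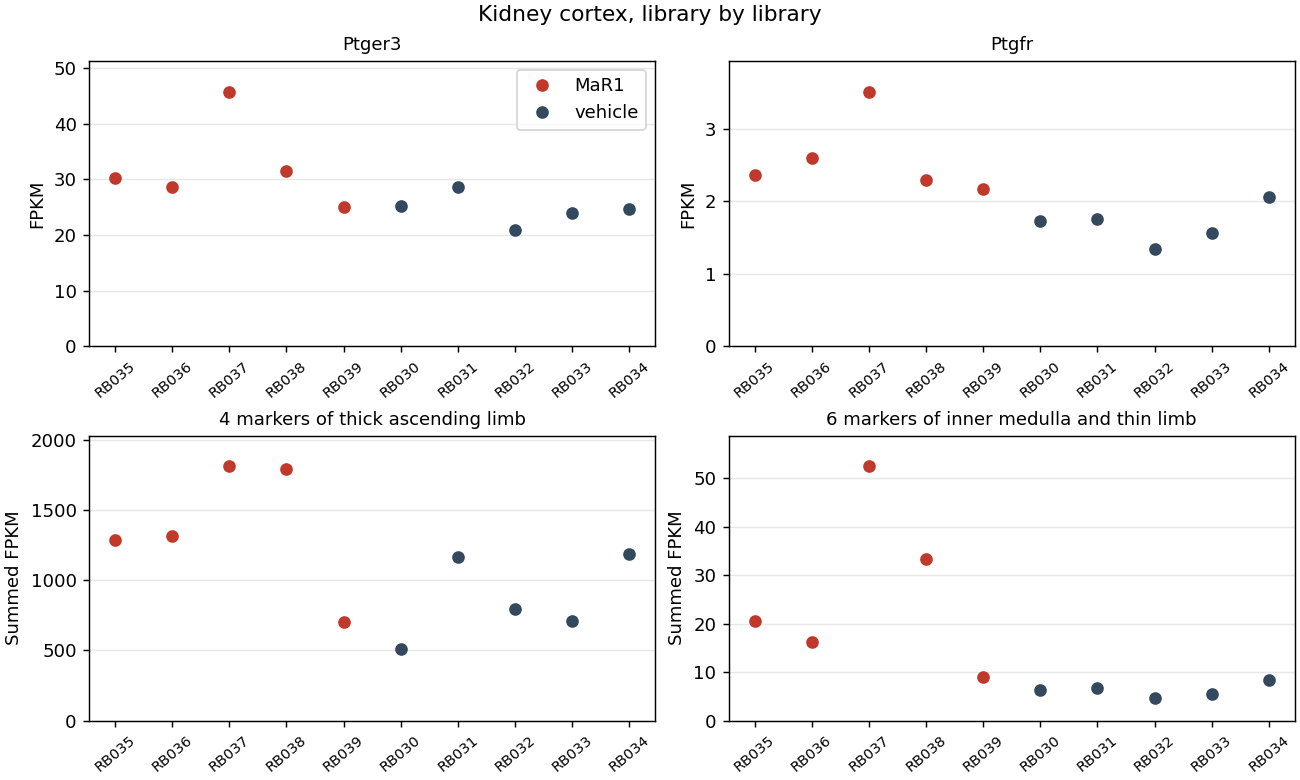
FPKM of Ptger3 and Ptgfr (upper panels) and summed FPKM of the markers of 2 nephron segments (lower panels) in each kidney cortex library, MaR1 animals left of vehicle animals. RB037 is the highest library in all 4 panels, at 45.8 and 3.52 FPKM for the receptors and 1813 and 52.5 FPKM for the marker sums.

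Markers of several nephron segments and other cell types also differed in level between the groups. The 4 thick ascending limb markers summed to 703 to 1813 FPKM in MaR1 kidneys and 511 to 1190 FPKM in vehicle kidneys, and all 4 had higher means with MaR1. The 6 inner medulla and thin limb markers summed to 8.92 to 52.5 FPKM in MaR1 kidneys and 4.62 to 8.34 FPKM in vehicle kidneys, with 6 of 6 higher and the groups not overlapping. The 5 collecting duct principal cell markers summed to 208 to 342 FPKM in MaR1 kidneys and 143 to 221 FPKM in vehicle kidneys, with 4 of 5 higher and Avpr2 at 0 in every library. The 5 vascular smooth muscle markers summed to 62.5 to 122 FPKM in MaR1 kidneys and 48.4 to 99.2 FPKM in vehicle kidneys (5 of 5 higher). The 5 adipocyte markers summed to 27.7 to 383 FPKM in MaR1 kidneys and 9.82 to 23.4 FPKM in vehicle kidneys (5 of 5 higher), and these groups did not overlap either. The 3 distal convoluted tubule markers went the other way, with 0 of 3 higher and sums of 88.2 to 288 FPKM (median 148) in MaR1 kidneys and 167 to 234 FPKM (median 203) in vehicle kidneys. Proximal tubule markers (0 of 6 higher; 1508 to 3014 FPKM with MaR1 and 2024 to 2880 FPKM with vehicle) and podocyte markers (0 of 4 higher; 42.6 to 71.4 FPKM with MaR1 and 67.1 to 101 FPKM with vehicle) had lower means. RB037 had the highest inner medulla, thick ascending limb and collecting duct sums and the lowest proximal tubule and podocyte sums of the 10 kidneys. Its distal convoluted tubule sum of 99.0 FPKM was among the lowest. RB038 had similar thick ascending limb (1791 FPKM) and podocyte (42.6 FPKM) sums. Its inner medulla (33.3 FPKM) and collecting duct (256 FPKM) sums were lower than those of RB037. RB038 had 31.5 FPKM of Ptger3 and 2.30 FPKM of Ptgfr. The part of these shifts in the Ptger3 and Ptgfr values was not tested. Leaving out the 4 kidneys that held urothelial transcripts left 2 MaR1 animals, RB035 and RB037, and 4 vehicle animals. RB037, the highest kidney for both receptors, thus weighs more in that fit. There the log2 fold change was 0.60 for Ptger3 (limma, adjusted p = 0.403) and 0.82 for Ptgfr (adjusted p = 0.287).

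Ptger4 and Ptgir, both Gs-coupled, had lower means with MaR1 in the kidney cortex. Ptger4 had 4.50, 4.35, 4.06, 2.49 and 4.04 FPKM in MaR1 animals RB035 to RB039, against 6.32, 3.50, 5.81, 5.31 and 4.34 FPKM in vehicle animals RB030 to RB034. All 5 MaR1 kidneys were under the vehicle mean, yet above the vehicle kidney RB031 in 4 cases, and the log2 fold change was -0.37 ± 0.19 (95% interval -0.79 to 0.05, adjusted p = 0.775). Ptgir had 1.497, 1.00, 1.45, 1.43 and 1.20 FPKM in MaR1 animals, against 2.86, 1.20, 2.31, 2.07 and 1.21 FPKM in vehicle animals in the same order. The vehicle kidneys fell into 3 at or above 2.07 FPKM and 2 near 1.20 FPKM, the level of the MaR1 kidneys, and the log2 fold change was -0.45 ± 0.24 (95% interval -0.97 to 0.07, adjusted p = 0.775). Leaving out 1 library moved both estimates in either direction. They were closer to 0 at -0.22 for Ptger4 without RB038 and -0.30 for Ptgir without RB030. Without RB031 they were further from 0, at -0.49 for Ptger4 and -0.595 for Ptgir.

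Ptger2 ranged from 0.365 to 0.625 FPKM in MaR1 kidneys and from 0.0947 to 0.740 FPKM in vehicle kidneys, a log2 fold change of 0.69 ± 0.39 (adjusted p = 0.793) on 4 to 35 fragments per library. Ptger1 averaged 3.96 ± 0.558 FPKM in MaR1 kidneys and 3.76 ± 0.591 FPKM in vehicle kidneys (log2 fold change 0.07, 95% interval -0.21 to 0.35). Tbxa2r averaged 1.37 ± 0.370 FPKM in MaR1 kidneys and 1.32 ± 0.323 FPKM in vehicle kidneys (log2 fold change 0.05, 95% interval -0.41 to 0.51). The estimates of Ptger1 and Tbxa2r were below 0 without animal RB037.

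In the left ventricle no receptor passed the threshold either, and 0% of the 16453 genes tested did (limma; 763 genes had an unadjusted p under 0.05, none of them a receptor, and limma voom called 0). The adjusted p was 1.00 for all 7. None of the 7 had groups that did not overlap, beside 0.76% of genes tested. Estimates were higher with MaR1 for 6 of 7 receptors, by 0.01 to 0.55 on the log2 scale, and lower for Ptgfr.

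Ptgfr in the left ventricle had 42.8, 56.8, 52.2, 43.9 and 37.0 FPKM in MaR1 animals RB035 to RB039, against 54.4, 74.7, 63.8, 29.8 and 47.4 FPKM in vehicle animals RB030 to RB034. The vehicle hearts held both the highest and the lowest value. The means were 46.5 ± 7.91 FPKM with MaR1 and 54.0 ± 17.0 FPKM with vehicle, and the log2 fold change was -0.17 ± 0.22 (95% interval -0.65 to 0.32). Without animal RB033, the heart with the highest atrial marker sum, it was -0.36, and without animal RB031, the heart with the highest Ptgfr level, it was -0.03. The 5 atrial markers summed to 367 to 5445 FPKM in MaR1 hearts and 487 to 10082 FPKM in vehicle hearts (1 of 5 with a higher mean with MaR1). Nppa had the highest mean of the 5, 1723 FPKM in MaR1 hearts and 3106 FPKM in vehicle hearts. The 1 higher marker, Bmp10, averaged 1.76 FPKM in MaR1 hearts and 0.00997 FPKM in vehicle hearts. The 6 endothelial markers summed to 275 to 434 FPKM in MaR1 hearts and 285 to 375 FPKM in vehicle hearts (6 of 6 higher). Means were also higher with MaR1 for 4 of 5 macrophage, 2 of 6 cardiomyocyte, 2 of 4 fibroblast, 1 of 5 vascular smooth muscle and 0 of 3 mast cell markers. Without the 3 hearts with the most atrial transcripts the log2 fold change was -0.44 for Ptgfr and 0.42 for Ptger4 (adjusted p = 0.608 and 0.655).

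Ptger4 averaged 7.34 ± 1.45 FPKM in MaR1 hearts and 6.40 ± 1.91 FPKM in vehicle hearts. Its log2 fold change was 0.22 (95% interval -0.25 to 0.69). The estimate was 0.10 without animal RB032, 0.11 without animal RB030 and 0.35 without animal RB039. Tbxa2r averaged 2.09 ± 0.461 FPKM in MaR1 hearts and 1.68 ± 0.285 FPKM in vehicle hearts, with a log2 fold change of 0.29 (95% interval -0.09 to 0.67) and 4 of 5 MaR1 hearts above the vehicle mean. Ptger1 was tightly grouped in MaR1 hearts, at 5.11 to 5.44 FPKM, inside the vehicle range of 3.42 to 6.44 FPKM. Ptgir had 1.49 to 2.30 FPKM in MaR1 hearts and 1.32 to 1.95 FPKM in vehicle hearts. Ptger3 had 0.883 to 1.90 FPKM in MaR1 hearts and 0.826 to 1.70 FPKM in vehicle hearts. Ptger2 had 0.148 to 0.852 FPKM in MaR1 hearts and 0 to 0.598 FPKM in vehicle hearts, and its interval of -0.62 to 1.71 was the widest of the 7.

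**Figure D5:**
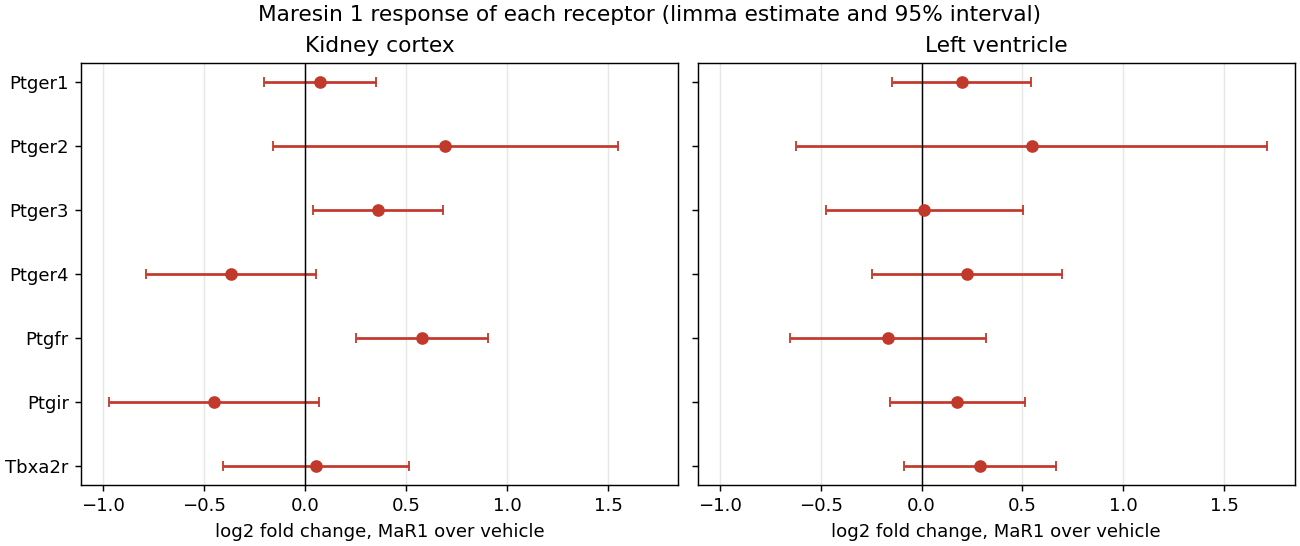
Log2 fold change of MaR1 over vehicle (horizontal axis) for each receptor in the kidney cortex and the left ventricle; points are limma estimates and bars their 95% intervals, 5 animals per group. In the kidney cortex the intervals of Ptgfr (0.25 to 0.91) and Ptger3 (0.04 to 0.68) lie above 0, and in the left ventricle every interval includes 0; none passed the threshold after adjustment.

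The difference between the organs in the response to MaR1 was tested as an interaction, kidney cortex minus left ventricle. No receptor passed the threshold, beside 0.00576% of the 17365 genes tested (1 gene); 949 genes, 5.47%, had an unadjusted p under 0.05, among them Ptgfr and Ptgir. Ptgfr had the largest estimate of the 7, 0.75 ± 0.28 (SE; 95% interval 0.17 to 1.32, adjusted p = 0.835), from a log2 fold change of 0.58 in the kidney cortex and -0.17 in the left ventricle. Ptgir was at -0.63 ± 0.29 (adjusted p = 0.907) and Ptger4 at -0.59 ± 0.30 (adjusted p = 0.923), each with a lower mean with MaR1 in the kidney cortex and a higher one in the left ventricle.

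The genes around the receptors were described from lists that hold 47 genes in all. These cover prostanoid synthesis, uptake and breakdown, G protein alpha subunits, second messenger effectors and receptor desensitisation. No gene carried the symbol Ptges or Ptgis, so both are missing from the synthesis list. None of the 47 passed the threshold for MaR1 in either organ or for the interaction. In the kidney cortex, 2 of 9 synthesis genes and 2 of 18 effectors had an unadjusted p under 0.05, beside 6.5% of all genes tested. The genes of smallest p are given as values. Ptgs1, the constitutive cyclooxygenase, averaged 4.02 ± 0.877 FPKM in MaR1 kidneys and 2.44 ± 0.692 FPKM in vehicle kidneys (log2 fold change 0.71 ± 0.20, adjusted p = 0.640). Plcb4, a phospholipase C that Gq activates, averaged 2.53 ± 0.179 FPKM in MaR1 kidneys and 1.96 ± 0.163 FPKM in vehicle kidneys (log2 fold change 0.35 ± 0.09, adjusted p = 0.609), and the groups did not overlap. Rapgef3, the cyclic AMP sensor Epac1, averaged 13.6 ± 1.43 FPKM in MaR1 kidneys and 15.4 ± 1.00 FPKM in vehicle kidneys (log2 fold change -0.18 ± 0.08, adjusted p = 0.760).

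In the left ventricle the smallest p of these lists belonged to Plcb3, another phospholipase C (8.28 ± 0.449 FPKM with MaR1 and 6.97 ± 0.954 FPKM with vehicle), Grk6, a receptor kinase (15.2 ± 1.24 FPKM with MaR1 and 13.1 ± 1.19 FPKM with vehicle), and Rapgef3 (13.2 ± 0.504 FPKM with MaR1 and 11.5 ± 1.38 FPKM with vehicle), each with an adjusted p of 1.00 (limma). Rapgef3 thus had a lower mean with MaR1 in the kidney cortex and a higher one in the left ventricle, with an interaction of -0.39 ± 0.12 (adjusted p = 0.662). Gna12, a G protein alpha subunit (-0.27 ± 0.13), and Adcy9, an adenylyl cyclase (-0.39 ± 0.19), followed, with adjusted p of 0.911 and 0.914.

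Between the organs, 12 of 18 second messenger effectors were lower and 5 higher in the kidney cortex, where 79.1% of all 17365 genes passed the threshold, 6651 lower and 7088 higher. The median of that list was a log2 fold change of -0.57, beside 0.03 over all genes. Adcy5, a cardiac adenylyl cyclase, averaged 2.85 FPKM in MaR1 kidneys and 2.61 FPKM in vehicle kidneys, against 44.2 FPKM in MaR1 hearts and 45.0 FPKM in vehicle hearts (log2 fold change of kidney over heart -3.99 ± 0.09, adjusted p = 6.7e-19). Plcb4 (-3.12 ± 0.08, adjusted p = 7.7e-18) and Prkaca, a catalytic subunit of protein kinase A (-1.97 ± 0.08, adjusted p = 9.4e-15), were also lower in the kidney cortex. Of the 9 synthesis genes 4 were lower and 2 higher, of the 8 G protein subunits 3 were lower and 3 higher, of the 7 desensitisation genes 4 were lower and 0 higher, and of the 5 genes of uptake and breakdown 2 were lower and 3 higher.

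For each receptor, the 3 genes whose level varied most alike were sought over the 10 libraries of the organ where it was higher. They were ranked by Pearson's r of log2(FPKM + 0.1) among 11060 to 11226 genes with a mean of at least 1 FPKM. The highest of so many r values over 10 libraries can be high without any link, and none was tested. These are descriptions over libraries that share treatment, dissection and scaling. Ptger3 in the kidney cortex was nearest to Cyfip2 (r = 0.96), Lrp5 (0.95) and Mapk13 (0.94), and Ptger2 to Cpne8 (0.95), Enpp4 (0.95) and Adgrg6 (0.94). In the left ventricle Ptgfr was nearest to Epha3 (0.93), Pex3 (0.90) and Rnpc3 (0.89), and Ptger4 to Unkl (0.94), Layn (0.94) and Strn (0.93). Ptger1 was nearest to Gnl1 (0.96), Ppp1r14b (0.95) and Mcl1 (0.95), Ptgir to Fosl1 (0.92), Abhd17a (0.89) and Lsm4 (0.88), and Tbxa2r to Uhmk1 (0.87), Nme7 (0.85) and Avl9 (0.83).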

How the data were processed

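The deposited table gives FPKM for 30560 genes in 20 libraries, as the authors computed it. The submitters' processing notes name fastp (version not given), HISAT2 2.0.5, StringTie 1.3.3b and featureCounts 1.5.0-p3. Neither the genome build nor the strandedness is stated in the labels. FPKM times exon length and a library size recovered for each library gave whole fragments, within 0.01, for 100% of 371175 values above 0.

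Genes whose mean over the fitted libraries reached 0.1 FPKM were tested in limma 3.58.1 (R 4.3.3) on log2(FPKM + 0.1), with a variance trend, two-sided tests and Benjamini-Hochberg adjustment over all genes at 0.05. A fold change on this scale understates the change of low genes. Each organ was fitted alone; organ and interaction terms came from 1 model without an animal block. The fit was tested on simulated data with known changes. Those changes were placed in genes with a mean of at least 1 FPKM, and every gene was given the same added spread. That run therefore does not show how well changes of low or variable receptors are found. Single values were compared by exact permutation. Tests of MaR1 against vehicle within an organ compare separate animals. The organ and interaction fits hold both organs of each animal and treat their libraries as separate. The order tests compare genes within the same libraries. Python 3.11.15 and matplotlib 3.10.9 were used for the rest.

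Same-numbered libraries come from the same animal. After removing group means from 10987 genes, same-animal correlations were -0.0166 to 0.156, 2 of 10 were over 0.1, and 0 kidneys correlated best with their own heart; the block fit (statmod 1.5.0) estimated a correlation of 0.0507 to 0.0528.

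Named were all members, Ptgdr2, up to 3 genes of smallest p from the pathway lists per comparison, and the 3 nearest genes of each member. Of 143 list symbols 137 matched; where a symbol had several rows, the one of higher mean was used. Members and lists were chosen with earlier results of these data known, as were the lower filter and pseudocount. Alternatives were pseudocounts of 0.5 and 1, no filter or a mean of at least 1 FPKM, quantile scaling, limma voom on recovered fragments, a robust prior, the animal block, 1 treatment only, leaving out each animal, and leaving out kidneys with urothelial transcripts. Those that left out hearts with atrial transcripts, used assigned fragments as library size, or put all libraries in 1 model were chosen after seeing the data.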

Additional observations from a re-analysis of the deposited data

Results flagged for a closer look

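Each receptor was examined for a library far from the rest of its group, in 28 groups of 5, where chance gives about 1 in 20. The rule flagged 2 of the 28, which is near that rate. In MaR1 kidneys, the highest Ptger2 value, 0.625 FPKM in animal RB037, stood apart from the other 4. It rests on 24 fragments, against 13 to 17 in the others. In MaR1 kidneys, the lowest Ptger4 value, 2.49 FPKM in animal RB038, also stood apart. Without RB038 the log2 fold change of Ptger4 in the kidney cortex was -0.22, against -0.37 with all 10 animals.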

How the results depend on the processing

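Ptger3 and Ptgfr passed the threshold between the organs under all 22 alternatives run, with log2 fold changes of 3.72 to 4.90 for Ptger3 and -4.86 to -4.01 for Ptgfr. No receptor passed the threshold for MaR1 in either organ or for the interaction under any alternative run. The lowest p of Ptgfr in the kidney cortex that was adjusted over all genes was 0.145, without animal RB039. Ptger2 was not tested with a filter of at least 1 FPKM. Few fragments limit Ptger2, Ptgir and Tbxa2r.

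With the animal as replicate block, which changed no receptor's call, 6 genes were called for MaR1 in the kidney cortex and 1 in the left ventricle; all libraries in 1 model without the block gave the same counts of 6 and 1. Leaving out 1 animal gave 0 to 2 genes in the kidney cortex, 0 to 1 in the left ventricle and 0 to 3 for the interaction. The 1 gene of the interaction became 0 with a pseudocount of 0.5 or 1 and with limma voom under both library sizes, and 5 without libraries holding urothelial or atrial transcripts. Leaving out 1 animal moved the log2 difference of Ptger4 over Ptger1 between 0.13 and 0.26 in the kidney cortex and between 0.37 and 0.54 in the left ventricle. Estimates that changed sign were all of effects that did not pass the threshold, except Ptger1 between the organs, at 0.0011 with assigned fragments as library size. Ptgir between the organs was at 0.17 with that library size and at 0.13 in vehicle animals alone. For MaR1 in the kidney cortex, Tbxa2r was at -0.012 under quantile scaling; leaving out 1 animal gave -0.068 to 0.16 for Tbxa2r and -0.0027 to 0.13 for Ptger1. For MaR1 in the left ventricle, Ptger3 ran from -0.14 to 0.14. The interaction of Ptger2 was -0.039 with limma voom, -0.017 with assigned fragments as library size, and -0.17 to 0.43 when leaving out 1 animal. The cause was not tested.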
